A study of Mus musculus with 6 samples.

Results

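Gfap and Vim, the genes of glial fibrillary acidic protein and vimentin, were followed in brain sections of mice of 3 ages. They were taken by symbol and are 2 of the 32285 genes in the count tables. Earlier results of these data were known when they were chosen. The assay was Visium spatial RNA sequencing, in which frozen tissue is laid over an array of barcoded spots and each captured transcript is counted once as a unique molecular identifier (UMI). The sections were coronal, 16 µm thick and, per the labels, taken at 1 level of the brain from male C57BL/6J mice, an unmodified inbred strain, so the values hold for 1 sex and 1 strain. Young mice were 6 months old, middle mice 18 months and old mice 21 months, with 2 sections and, per the labels, 2 males per age. Each section was therefore taken as 1 animal, numbered as in the labels. Young 1, young 2, middle 1 and old 1 shared slide 1, and middle 2 and old 2 shared slide 2.

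Intermediate filaments are rope-like polymers of the cytoskeleton. Gfap protein is the filament of mature astrocytes and the usual marker of astrocyte reactivity, in which the cells enlarge and make more of it. Vim protein copolymerizes with it in reactive astrocytes and in radial glia, and is the main filament of ependymal cells, tanycytes, endothelium, fibroblasts and other mesenchymal cells. In the healthy rodent brain Gfap is abundant in astrocytes of fibre tracts, the hippocampus and the glia limitans, and sparse in most cortical astrocytes. Transcription of Gfap is known to respond to Jak-Stat3 signalling downstream of cytokines of the interleukin-6 family.

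Gfap (ENSMUSG00000020932) lies on chromosome 11, positions 102887336 to 102900912 on the minus strand, and Vim (ENSMUSG00000026728) on chromosome 2, positions 13573927 to 13582826 on the plus strand, in GENCODE M21 on build GRCm38. A long noncoding RNA on the other strand, Gm26668, spans the whole of Gfap and was not analysed here. The RefSeq promoter windows of build GRCm38.p6, 250 bases before to 50 bases after the annotated start, are shown here in part because both members' levels differed so widely between regions and ages. For Gfap the 250 bases before the RefSeq start are printed, chr11:102897201-102897450 on the minus strand. This stretch lies inside the GENCODE span of the gene given above, not upstream of it. It is all in lower case, since none of the 4 motifs searched on both strands, given below the sequences, had a match in that window. For Vim 30 bases are printed, chr2:13574267-13574296 on the plus strand, where capitals mark a TATAAA match. The rest of the Vim window lies within an exon annotated as untranslated in another Vim transcript.
Gfap: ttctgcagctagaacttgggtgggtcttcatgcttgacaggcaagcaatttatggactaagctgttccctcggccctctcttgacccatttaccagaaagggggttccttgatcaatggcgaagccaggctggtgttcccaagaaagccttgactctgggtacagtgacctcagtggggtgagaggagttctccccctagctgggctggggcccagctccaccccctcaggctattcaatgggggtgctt
Vim: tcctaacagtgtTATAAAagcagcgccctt
TATAAA occurs in 13.62% of 32851 promoter windows on either strand, and CCAAT, in 37.41% of them, had 2 matches in the Vim window and none in that of Gfap. Neither window held the AP-1 motif TGANTCA (7.81% of windows) or the Sp1 motif GGGCGG (35.66%). These matches describe letters and not binding.

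The sections held 16741 spots with at least 500 UMIs, 60938938 to 77557934 UMIs each and 20370 to 30093 UMIs in the median spot, with the old sections shallowest. Pairs of sections shared 2082 to 2826 spot barcodes, which name places on the grid. Since region images were not used, 3 sets of spots were drawn in each section by the share of their UMIs that came from marker genes. White matter spots were the 10% with the largest myelin share, pial spots the 5% with the largest meningeal share, and ventricle wall spots the 2% with the largest ependymal share. None of the marker lists holds Gfap or Vim. All 16 myelin markers were higher in white matter spots than in spots of none of the 3 sets (median 11.7 times), as were all 20 markers of pial spots (29.2 times) and all 20 of ventricle wall spots (94.0 times). The sets overlap: 143 of 334 ventricle wall spots were also pial spots, and 156 of 838 pial spots lay in the choroid plexus and ventricle wall cluster, so the pial set as drawn is not meninges alone. Each spot spans several cells, and in summed spots fewer cells of a type and less RNA per cell cannot be told apart. Young 1 stood apart in what it held: clusters of the hippocampal formation had 67 of its spots against 182 to 296 in the other sections, and 1 of these clusters had 0 against 26 to 47. Whether it lies at the same level was not tested. Without young 1 the old against young difference of Gfap on the log2 scale was 0.95 in whole sections (edgeR adjusted p = 0.307) and 1.1 in white matter spots (0.00154), and that of Vim 0.81 (0.183) and 1.65 (0.483), on the same side of the threshold as with it.

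Over whole sections Gfap was counted 43980 times and Vim 18543 times. White matter spots, 1674 in all, held 16511 of these Gfap UMIs and 4591 of the Vim UMIs. Levels are given as CPM, the UMIs of a gene per 1000000 UMIs of the same spots. To place the members in all tissue, spots were also clustered on 2000 variable genes without Gfap, Vim and the glial lists, and clusters were named from markers. Region levels are a description, since regions and levels come from the same spots.

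Gfap was highest in the white matter cluster (Trf and Apod among the leading genes) in all 6 sections, at 825 ± 365 CPM (SD, n = 6), 7.95 times the mean whole-section level. The choroid plexus and ventricle wall cluster (led by Ttr, Enpp2 and Ecrg4) had 378 ± 135 CPM and the pial cluster (led by Ptgds, Mgp and Igf2) 371 ± 106, which differed by less than their spread and in 3 of 6 sections each way. The hippocampal formation (Ddn, Hpca and C1ql2 among the leading genes) came next at 238 ± 94.8 CPM, above the 109 ± 37.1 of the unnamed clusters in every section. Striatum (Penk) had 65.3 ± 32.3 CPM, hypothalamus (Pmch, Hap1) 36.4 ± 5.53, thalamus (Prkcd, Tcf7l2) 26.0 ± 12.3, isocortex (Nrgn, Lamp5) 19.2 ± 5.15 and the amygdala and olfactory cortex (Nptxr, Lypd1) 17.8 ± 3.02. Each step from striatum down was within the spread over sections. The regions lowest in Gfap were thus all grey matter.

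Vim had another order. It was highest in the choroid plexus and ventricle wall cluster at 378 ± 60.3 CPM (SD, n = 6), then in the pial cluster at 292 ± 71.1 and only then in the white matter cluster at 197 ± 106. The ventricle cluster exceeded the pial cluster in 5 of 6 sections, and the pial cluster exceeded white matter in all 6 by less than the spread. Hippocampal formation (53.5 ± 32.1) and the unnamed clusters (39.4 ± 9.28) followed. Striatum and thalamus were alike in mean at 25.9 CPM each, with hypothalamus at 24.1 ± 6.04, isocortex at 15.5 ± 2.25 and the amygdala and olfactory cortex at 13.9 ± 3.24.

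The UMIs of Gfap per UMI of Vim put the contrast in 1 number, in which transcript length cancels between regions. Over the 6 sections the ratio averaged 4.75 ± 1.06 (SD, n = 6) in the hippocampal formation and 4.36 ± 0.70 in the white matter cluster. It was 1.29 ± 0.34 in the pial cluster, 1.24 ± 0.26 in isocortex, 1.00 ± 0.46 in thalamus and 0.97 ± 0.22 in the choroid plexus and ventricle wall cluster. The lowest white matter ratio, 3.77 in young 1, was above the highest of the pial and ventricle clusters, 1.66. The white matter cluster averaged 4.68 in young, 4.49 in middle and 3.91 in old sections. Its 2 young sections, at 3.77 and 5.60, spanned the middle (4.23 and 4.76) and old ones (3.97 and 3.85). The striatum averaged 1.88, 2.27 and 3.10, with 1.60 and 2.17 in young, 1.86 and 2.68 in middle, and 2.95 and 3.25 in old sections.

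**Figure D1:**
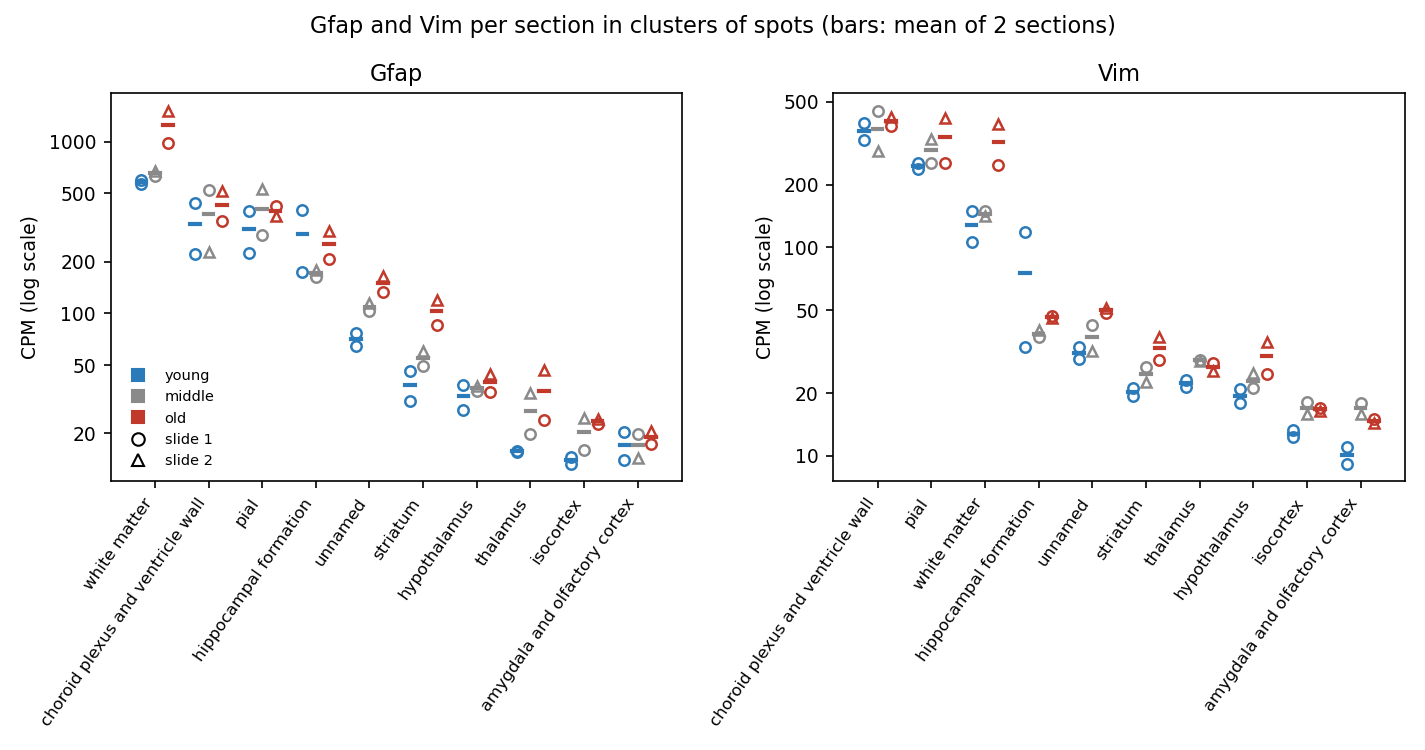
Gfap (left) and Vim (right) in CPM on a log axis for the 10 cluster regions, ordered by mean level, with 1 point per section coloured by age circles for slide 1, triangles for slide 2 and a line at the mean of each age. White matter tops the Gfap panel in every section, and the choroid plexus and ventricle wall cluster has the highest mean in the Vim panel.

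The next question was how both members changed with age, first in white matter. In white matter spots Gfap measured 506 and 525 CPM in young 1 and 2, 623 and 599 in middle 1 and 2, and 962 and 1402 in old 1 and 2. The ages did not overlap, the middle sections sat close to the young ones, and old 2 was highest. With 2 sections per age many genes can separate in this way, and their share over all genes was not counted, here or below. Gfap rose from 516 ± 13.8 CPM in young to 1182 ± 311 in old (SD, n = 2 each), by 1.11 on the log2 scale (SE 0.14, edgeR quasi-likelihood test, adjusted p = 0.000249). In that test 394 of 12747 genes were called at an adjusted p under 0.05, or 3.09% of them. Gfap also rose from middle to old, by 0.95 (SE 0.14, edgeR adjusted p = 0.00549; 1.15% of genes called), while the difference of middle from young was 0.16 (SE 0.14, adjusted p = 0.537; 10.7% called). Old against young was called without each section in turn (0.82 to 1.35), whereas old against middle was not called without middle 2 (0.90, adjusted p = 0.186) or without old 2 (0.66, adjusted p = 0.055). With a set of 2 times as many spots the old against young difference was 0.91 (edgeR adjusted p = 0.0942).

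Vim in white matter spots measured 137 and 104 CPM in young 1 and 2, 209 and 140 in middle 1 and 2, and 268 and 413 in old 1 and 2. Young 1 and middle 2 were nearly level, and both old sections were above all others. The mean was 120 ± 23.6 CPM in young, 175 ± 48.8 in middle and 340 ± 102 in old (SD, n = 2 each). The log2 difference of old from young was 1.41, larger than that of Gfap, but with an SE of 0.38 and an edgeR adjusted p of 0.25 it was not called. It was called by DESeq2 (1.41, adjusted p = 0.0235, with 1.21% of genes called), a set with 5% of the spots (1.92, edgeR adjusted p = 1.492e-10; 2.78% called), and white matter spots in no other set and outside the choroid plexus and ventricle wall cluster (1.62, edgeR adjusted p = 0.000301; 4.12% called). In those last spots Vim measured 92.8 and 89.8 CPM in young, 133 and 118 in middle, and 240 and 360 in old sections. Ependymal markers, which mark cells rich in Vim, summed to 173 to 463 CPM over all white matter spots and to 74.0 to 104 CPM once the overlapping spots were left out. Leaving out the overlap lowered Vim by the largest factor in middle 1 and young 1, and the ages did not overlap with or without it. Middle against young was 0.46 (SE 0.39, edgeR adjusted p = 0.602) and old against middle 0.95 (SE 0.37, edgeR adjusted p = 0.442).

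**Figure D2:**
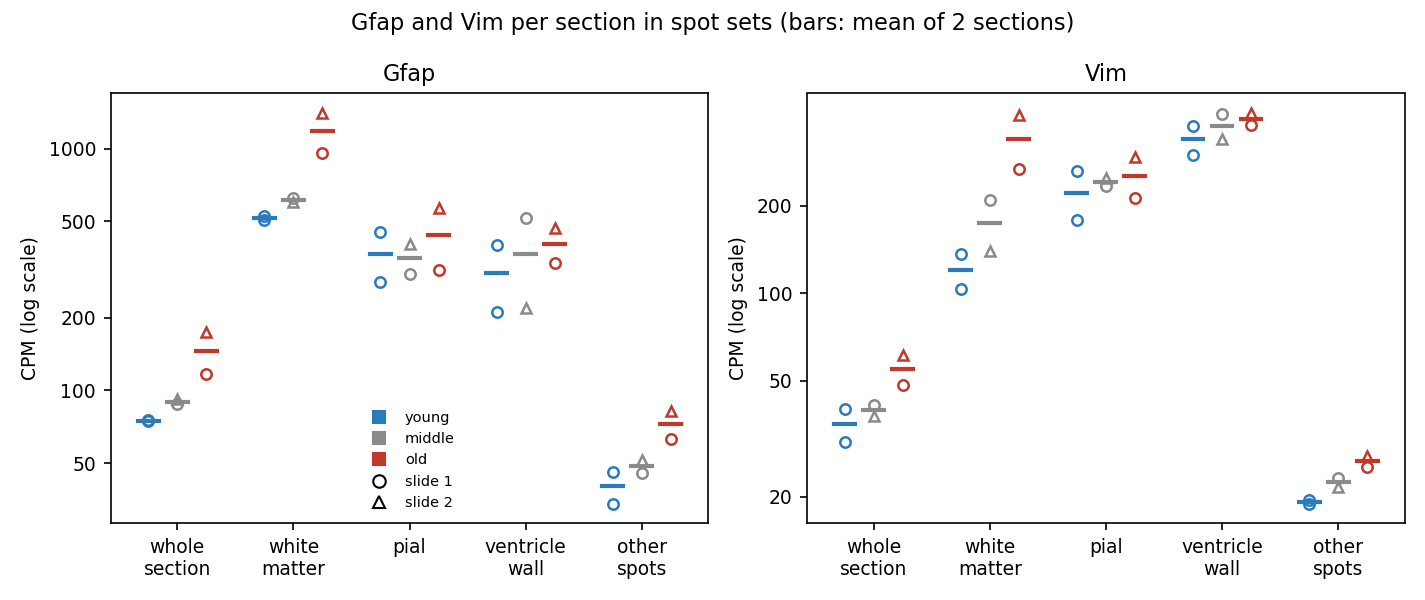
CPM of Gfap and Vim in whole sections, white matter, pial, ventricle wall and other spots, with 1 point per section by age, a circle for slide 1 and a triangle for slide 2, and a line at the mean of each age. In white matter spots both old sections exceed all young and middle sections for either gene, while ages overlap in pial spots and, except for Vim in old and young (380 against 378 CPM at the nearest), in ventricle wall spots.

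Slide is partly confounded with age, so values were also set against sections of the same slide. On slide 1, white matter Gfap in old 1 was 1.87 times the young mean and 1.54 times middle 1, and on slide 2 old 2 had 2.34 times the level of middle 2. For Vim the same ratios were 2.23, 1.28 and 2.94. Both members were therefore higher in the old section of either slide, and old 2 exceeded old 1 by 1.46 times for Gfap and 1.54 times for Vim. Slide 2 holds no young section, and each slide holds 1 old section, so these ratios have no test.

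The depth and purity of white matter spots moved too. UMIs per white matter spot averaged 12353 and 10610 in young, 16401 and 14376 in middle, and 11098 and 12382 in old sections. The 16 myelin markers summed to 62841 and 65777 CPM in young, 50839 and 44328 in middle, and 56130 and 54986 in old sections. The set was thus least rich in myelin transcripts at the middle age, and the part of this in the members' values was not tested. Counted per 1000 UMIs of the 22 astrocyte genes instead of per 1000000 of all UMIs, Gfap in white matter spots had 82.8 ± 1.78 in young, 90.8 ± 2.16 in middle and 161 ± 39.4 in old sections (SD, n = 2 each). Vim on that scale had 19.4 ± 4.72, 26.0 ± 7.15 and 46.2 ± 13.1. The order of the age means was the same on both scales for either gene. For Vim, middle and young sections overlapped on the astrocyte scale and not in CPM.

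In whole sections Gfap measured 75.4 and 74.6 CPM in young, 87.5 and 92.4 in middle, and 117 and 175 in old 1 and 2. The ages did not overlap, but old 2 was well above old 1. The log2 difference of old from young was 0.91 (SE 0.19, edgeR adjusted p = 0.214), which was not called; 0.164% of 17673 genes were. DESeq2 called it (0.91, adjusted p = 0.0171, with 1.1% of genes called), as did edgeR without old 1 (1.17, adjusted p = 0.00249), and without old 2 it was 0.59 (edgeR adjusted p = 0.123). Whole-section Vim measured 39.9 and 30.9 CPM in young, 41.2 and 38.0 in middle, and 48.2 and 61.6 in old sections. Middle 2 lay below young 1, and both old sections were above the rest. The difference of old from young was 0.58 (SE 0.19, edgeR adjusted p = 0.332), called by DESeq2 (0.58, adjusted p = 0.0272) and by no other alternative.

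Outside the 3 sets, 14155 spots remained. There Gfap measured 34.0 and 46.2 CPM in young, 45.7 and 51.8 in middle, and 63.0 and 82.2 in old sections, and Vim 19.4 and 18.9, 23.2 and 21.6, and 25.3 and 27.6. For either gene both old sections were highest, and middle 1 lay just under young 2 for Gfap. The differences of old from young were 0.80 (SE 0.18, edgeR adjusted p = 0.265) for Gfap and 0.41 (SE 0.08, edgeR adjusted p = 0.155) for Vim, neither called, with 0.075% of genes called. DESeq2 called both (0.81, adjusted p = 0.0471, and 0.41, 0.0154), and edgeR called Vim without the filter on low counts (0.41, adjusted p = 0.0326).

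Pial spots are where astrocyte endfeet form the glia limitans and where meningeal cells carry Vim. Gfap there measured 453 and 280 CPM in young, 303 and 403 in middle, and 313 and 569 in old sections. Vim measured 264 and 179, 235 and 249, and 213 and 294 CPM. All 3 ages overlapped for both genes, and replicates of 1 age differed by up to 1.82 times (Gfap, old 2 over old 1). Old against young was 0.28 (SE 0.31) for Gfap and 0.20 (SE 0.20) for Vim, both with an edgeR adjusted p of 0.999, where 0.053% of genes were called. Both differences turned negative without young 2 or without old 2.

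Ventricle wall spots hold ependymal cells, which line the ventricles. Gfap there measured 400 and 212 CPM in young, 517 and 218 in middle, and 336 and 469 in old sections, and Vim 378 and 300, 415 and 341, and 380 and 418. Within each age the sections were further apart for Gfap than the ages themselves, and Vim varied less. Old against young was 0.35 (SE 0.66, edgeR adjusted p = 0.961) for Gfap and 0.20 (SE 0.18, edgeR adjusted p = 0.918) for Vim, with 0.0667% of genes called. These sums rest on 51 to 59 spots per section, in which choroid plexus markers summed to 94772 to 141050 CPM. With the spots richest in choroid plexus markers removed first, the Gfap difference was -0.58 (edgeR adjusted p = 0.982).

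Whether the age difference itself was larger in white matter was tested as an interaction with section as a block. For Gfap the old against young difference in white matter exceeded that in spots outside the 3 sets by 0.30 (SE 0.11, edgeR adjusted p = 0.150), and for Vim by 1.00 (SE 0.26, edgeR adjusted p = 0.200). Neither was called, against 2.26% of 16789 genes. With the white matter spots that overlap no other set the excess was 0.40 for Gfap (edgeR adjusted p = 5.529e-05) and 1.2 for Vim (edgeR adjusted p = 4.462e-21), both called, with 3.65% of genes called. In pial spots the difference was smaller than outside the sets by 0.56 for Gfap and 0.21 for Vim, and in ventricle wall spots by 0.41 and 0.20, with edgeR adjusted p from 0.982 to 1.0. DESeq2 called the Vim excess too (0.98, adjusted p = 0.000628; 1.18% called) and not that of Gfap, while limma on differences within sections called 0 of 16789 genes, with 1489 at an unadjusted p under 0.05. Of 11 alternatives 8 called the excess of Vim and 5 that of Gfap. Leaving out 1 section moved the edgeR adjusted p from 6.505e-12 (without young 1) to 0.149 (without young 2) for Vim and from 0.0155 (without young 1) to 0.852 for Gfap, so the call depended on the test, the spots and the sections that entered it.

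The sum of each section was also split into classes that do not overlap, with ventricle wall spots taken first, then pial and then white matter spots. Of the 71.2 CPM by which whole-section Gfap in old exceeded young sections on average, white matter spots gave 57.0% from 9.30% of the spots. Pial spots gave 0.79%, ventricle wall spots 1.79% and all others 40.5%. Of the 19.5 CPM of Vim, white matter gave 61.1%, pial spots 2.61%, ventricle wall spots 3.57% and all others 32.7%. The full white matter set, overlaps included and so larger than that class, held 27.3% of all Gfap UMIs in young, 38.3% in middle and 42.8% in old sections. For Vim it held 13.5%, 24.8% and 32.7%. These shares and the parts of the rise also depend on how many UMIs white matter spots gave. Those spots averaged 12353 and 10610 UMIs in young, 16401 and 14376 in middle, and 11098 and 12382 in old sections. All spots averaged 29890 and 27660, 27887 and 26874, and 23217 and 21337. The part of depth was not tested.

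**Figure D3:**
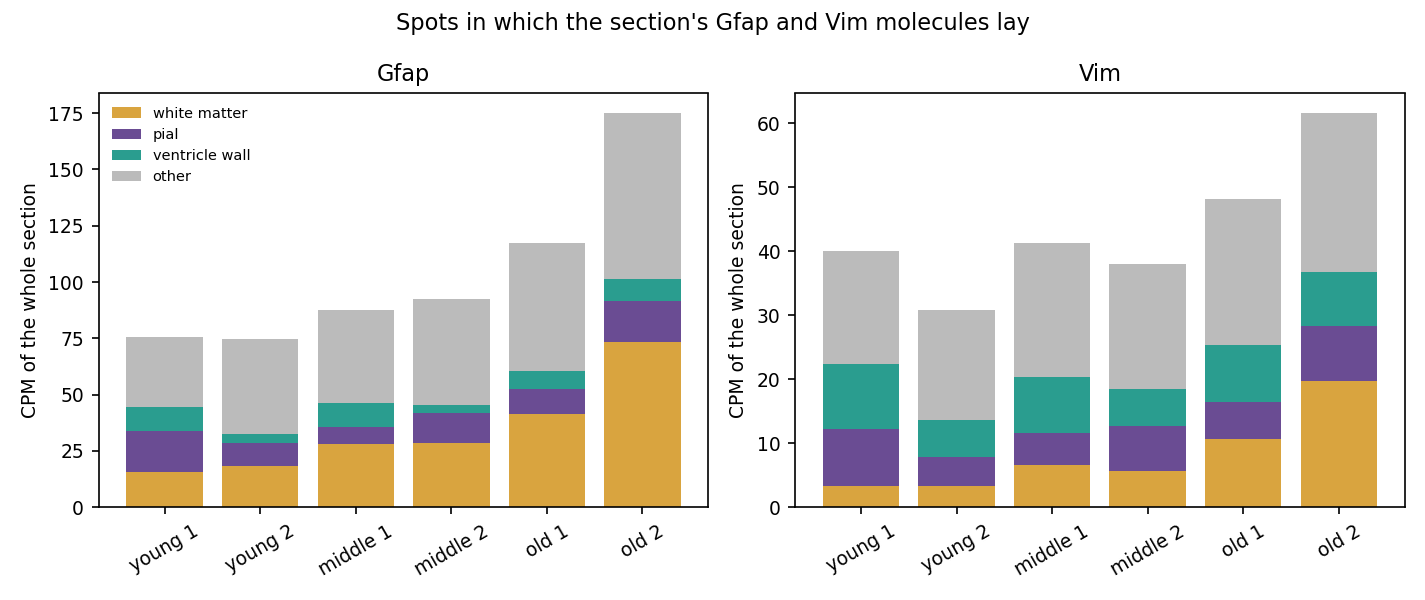
Contribution of 4 classes of spots that do not overlap to whole-section Gfap and Vim, in CPM of the section, as stacked bars from 0 for each of the 6 sections. The white matter part grows from 15.5 and 18.1 CPM in young to 41.5 and 73.2 in old sections for Gfap, and the pial and ventricle wall parts show no such step.

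Along the whole range of myelin share, the age difference was not even. In the 10% of spots richest in myelin transcripts Gfap averaged 519 CPM in young and 1179 in old sections, 2.27 times. In the next 10% it averaged 283 and 389 CPM, 1.38 times, with overlap between old and young sections. In the 10% after that it averaged 52.8 and 125 CPM, 2.36 times, without overlap. Vim followed with 2.82 times in the top 10%, 0.87 times in the next, where old and young overlapped, and 1.44 times in the one after. In the 10% of spots richest in pial markers the ratios of old to young were 1.43 for Gfap and 1.34 for Vim, and in the 10% richest in ependymal markers 1.2 and 1.21, all with overlapping ages.

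**Figure D4:**
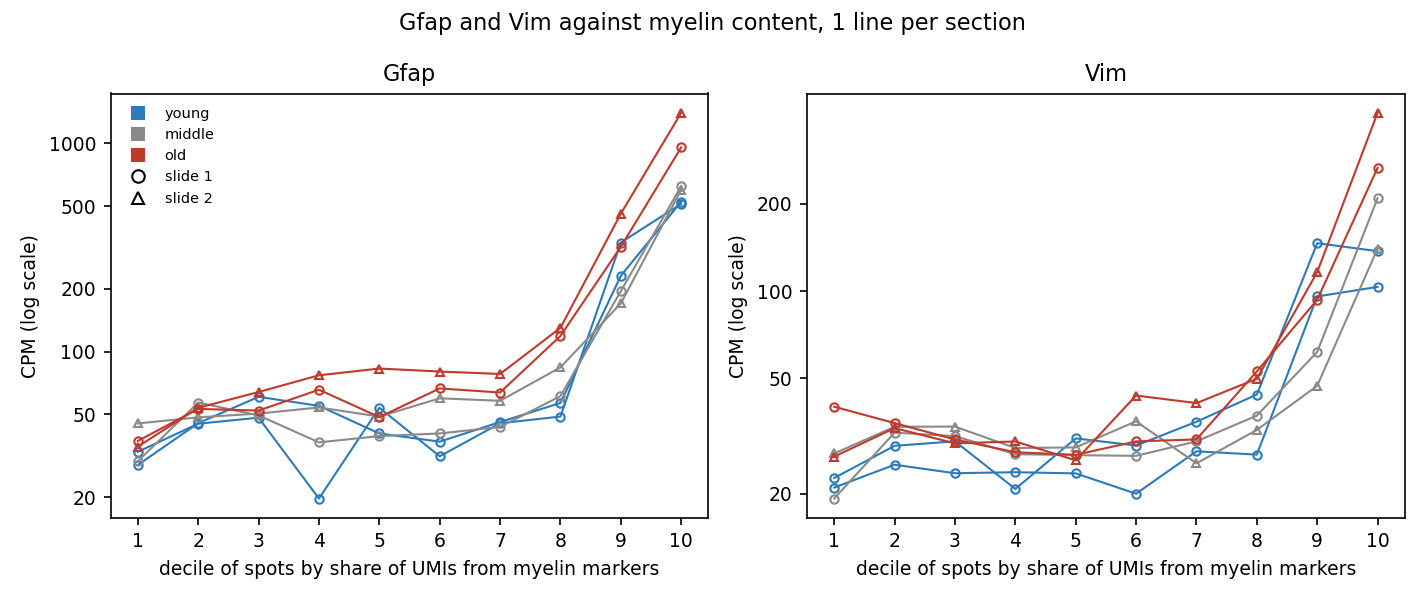
Gfap (left) and Vim (right) in CPM on a log axis in 10 equal classes of spots ranked by myelin share within each section, with 1 line per section coloured by age. The lines of the old sections stand apart at the right end, at 957 and 1402 CPM of Gfap against 512 and 525 in young sections.

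The white matter cluster did not use the 10% limit but shared 1419 of its 1561 spots with the white matter set. Resting largely on the same spots, it gave nearly the same values. Gfap there measured 563 and 596 CPM in young, 632 and 672 in middle, and 983 and 1503 in old sections, a rise of 1.04 (SE 0.16, edgeR adjusted p = 0.0053) with 2.65% of genes called. Without middle 1 or middle 2 it was no longer called (edgeR adjusted p = 0.0596 and 0.0593), with the difference itself near 1.03 in both. Vim measured 150 and 107, 149 and 141, and 248 and 390 CPM, with a difference of 1.25 (SE 0.32, edgeR adjusted p = 0.246).

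The pooled unnamed clusters are not apart from white matter. They include clusters led by Sparc, Ccn2 and Ecel1 that had a clear white matter list and were left unnamed by a rule chosen after the clusters were seen. In the pool Gfap measured 64.1 and 76.8 CPM in young, 103 and 114 in middle, and 133 and 165 in old sections. The rise of old over young was 1.02 (SE 0.11, edgeR adjusted p = 0.00871), with 0.318% of genes called. It was not called without young 1 (0.92, edgeR adjusted p = 0.057) or at a coarser clustering (0.76, edgeR adjusted p = 0.253). Vim there measured 29.2 and 33.2, 42.2 and 32.0, and 48.7 and 51.2 CPM (0.62, SE 0.12, edgeR adjusted p = 0.0624).

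In the striatum Gfap measured 30.8 and 45.9 CPM in young, 49.6 and 60.4 in middle, and 85.0 and 120 in old sections. The log2 difference of 1.41 (SE 0.20, edgeR adjusted p = 0.0563) was the largest of any region and just missed the threshold; 0.136% of genes were called there. DESeq2 (1.39, adjusted p = 7.6e-07) and a finer clustering (1.41, edgeR adjusted p = 0.00869) called it, as did edgeR without old 1 (1.63, 0.000594), young 1 (1.16, 0.00828) or young 2 (1.62, 2.467e-05). Isocortex measured 13.3 and 14.5 CPM of Gfap in young and 22.6 and 24.4 in old sections (0.72, SE 0.17, edgeR adjusted p = 0.193), and DESeq2 called this difference too (0.72, adjusted p = 0.00749; edgeR called 0.174% of genes there). Thalamus had 15.9 and 15.6 CPM in young and 23.8 and 46.9 in old sections (1.10, SE 0.44, edgeR adjusted p = 0.939). In these grey matter regions, where Gfap is sparse, no old section overlapped a young one, though the main edgeR fit called none of the differences. How many of all genes separate old from young in this way was not counted.

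Other regions showed small or mixed differences. Old against young Gfap was 0.26 (SE 0.16) in hypothalamus and 0.11 (SE 0.24) in the amygdala and olfactory cortex, with edgeR adjusted p of 0.829 and 0.991. In the hippocampal formation it was -0.16 (SE 0.47, edgeR adjusted p = 1.0), with Gfap at 402 and 174 CPM in young, 162 and 180 in middle, and 207 and 301 in old sections. Young 1, the highest, had 67 hippocampal spots, and the other sections had 182 to 296. Without young 1 the difference was 0.54 (edgeR adjusted p = 0.804). Hippocampal Vim was likewise highest in young 1, at 118 CPM against 33.3 to 46.7 elsewhere; its difference of -0.55 became 0.48 (edgeR adjusted p = 0.0793) without young 1 and -1.36 (edgeR adjusted p = 8.43e-09) without young 2.

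**Figure D5:**
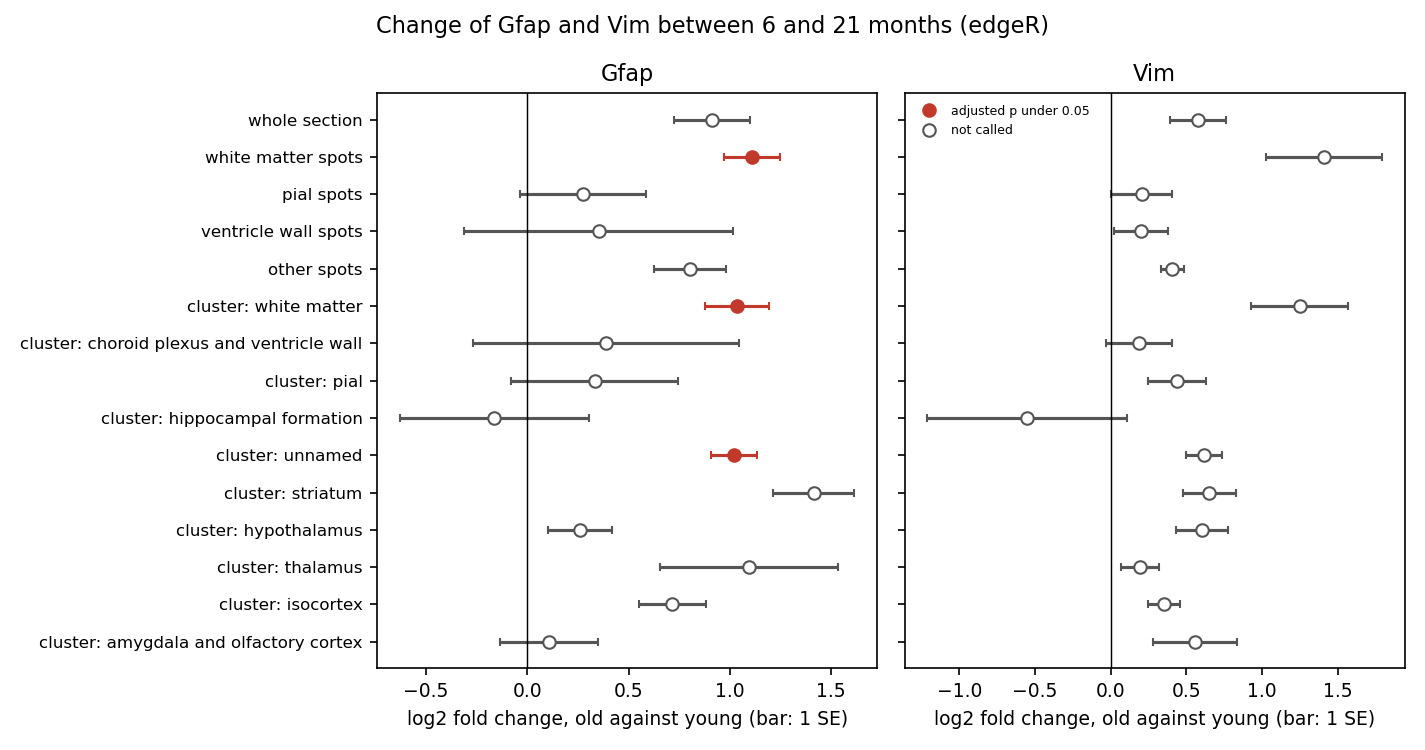
Log2 difference of old from young with its standard error for Gfap and Vim in whole sections, the spot sets and the 10 cluster regions; filled points passed an adjusted p of 0.05 in edgeR. For Gfap white matter spots, the white matter cluster and the unnamed clusters passed, and no Vim point did.

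The share of spots with a UMI gave a view less set by a few rich spots. Spots were thinned to 5000 UMIs so that depth did not enter, which left out 103 white matter spots. At least 1 Gfap UMI was found in 76.0% and 85.7% of white matter spots in young, 88.4% and 86.7% in middle, and 95.3% and 97.3% in old sections. For Vim the shares were 35.0% and 32.5%, 44.8% and 40.2%, and 58.2% and 75.7%. The ages did not overlap and followed their order in either gene. The exact permutation test over 3 ages gave p = 0.0667 for both (two-sided, n = 2 per age), the smallest that its 90 assignments allow, so this design cannot pass 0.05. Unthinned, the means were 92.8%, 97.1% and 98.8% for Gfap and 50.2%, 69.9% and 80.7% for Vim. In isocortex, a region low in Gfap, the thinned share was 7.36% in young and 11.7% in old sections (exact permutation p = 0.267 over the ages, n = 2 per age).

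White matter spots with both members made up 29.7% and 28.97% of thinned spots in young, 41.4% and 38.4% in middle, and 56.4% and 75.3% in old sections. Within a section, Spearman's rho between the members over white matter spots was 0.23 and 0.21, 0.31 and 0.30, and 0.42 and 0.47 in the same order. The points are spots of 1 section thinned to 1 depth, and they share a library. The share with both members and rho also depend on the share with each member, which rose with age. What lay beyond that was not tested. The rise of white matter Gfap was broad over spots: the median thinned spot held 2 UMIs in young 1 and young 2, 3 in middle 1, 2 in middle 2, 4 in old 1 and 6 in old 2. The 10% of spots with most Gfap held 31.2% and 32.4% of its UMIs in young and 24.6% and 25.4% in old sections.

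Gfap and Vim belong to a family of 24 intermediate filament genes listed here, of which 18 passed the filter on low counts in white matter spots. The list, like those that follow, was drawn up with earlier results of these data known. From young to old 1 rose, Gfap itself, and none fell, where 1.94% of all genes rose and 1.15% fell. The median log2 difference was 0.42, or 0.40 over the 16 that are not members, against -0.001 over all genes tested. The same values over all genes apply to each list below in white matter spots, old against young. Lmna, of the nuclear lamina, had 34.5 ± 0.70 CPM in young and 48.2 ± 1.82 in old sections (SD, n = 2 each; 0.40, edgeR adjusted p = 0.169). Nes, the filament of neural progenitors, had 6.67 ± 0.083 and 9.30 ± 3.57 CPM (0.38, edgeR adjusted p = 0.646). Synm, a partner of Gfap and Vim in astrocyte filaments, had 67.7 ± 0.97 and 75.0 ± 5.29 CPM (0.06, edgeR adjusted p = 0.873). Lmna, Nes and Synm were named after their values had been seen.

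Some neuronal filament genes were called between other ages. In middle against young white matter Nefl, the light neurofilament chain, rose by 1.27 (edgeR adjusted p = 0.00542), Ina, alpha-internexin, by 1.24 (6.93e-05) and Krt222 by 1.16 (0.0322), while Bfsp2, a beaded filament gene, fell by 0.65 (0.000947); 6.21% of genes rose and 4.53% fell in that comparison. Nefl measured 69.0 and 49.5 CPM in young, 124 and 180 in middle, and 81.0 and 83.6 in old sections. The medium and heavy chains Nefm and Nefh did not pass in that comparison (edgeR adjusted p = 0.115 and 0.148). Middle was also the age at which the set held the least myelin, and isocortex markers summed to 1079 and 1228 CPM in it against 770 and 874 in young. The part of this mixture in the result was not tested. Old against middle, Gfap rose and Ina fell by 0.83 (edgeR adjusted p = 0.0137), and Nefl had -0.88 (0.0855).

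Filament partners are linkers, small heat shock proteins and enzymes that act on filaments. Of 20 listed, 15 were tested in white matter, and from young to old none rose and 1 fell (median difference -0.04). Cryab, a small heat shock protein that binds Gfap filaments and is also made by oligodendrocytes, fell from 2997 ± 172 CPM to 2347 ± 55.3 (SD, n = 2 each; -0.44, SE 0.11, edgeR adjusted p = 0.0255). It was lowest in the middle sections, at 2035 and 1936 CPM, and the call was lost without old 1 (edgeR adjusted p = 0.218), old 2 (0.191) or young 2 (0.0772), and with clusters (0.0543), 2 times as many spots (0.265) or slide as a block (0.125). The linker Dst and the kinase gene Pak1 did not pass (-0.20 each, edgeR adjusted p = 0.358 and 0.327). Padi2, which citrullinates arginine residues and is known to act on Gfap and myelin basic protein, fell by 0.48 from young to middle (edgeR adjusted p = 0.00387). Hspb1, another small heat shock protein, fell in whole sections from 29.8 to 21.2 CPM (-0.54, edgeR adjusted p = 0.029), the only listed gene called there. It was called in 10 of 16 alternatives, and not without middle 1 (0.0812), middle 2 (0.0837), old 1 (0.102) or old 2 (0.27), with only the ages compared (0.0935) or with slide as a block (0.137). In ventricle wall spots it fell too, by 1.27 (edgeR adjusted p = 0.0043), in 12 of 18 alternatives. The call there was lost without old 1 (0.257), old 2 (0.157) or young 2 (0.132), with 2 times as many spots (0.0853), without choroid plexus spots (0.649) and in spots of no other set (0.967). In white matter Hspb1 fell from young to middle by 0.70 (0.00339) and had -0.42 (0.155) in old against young.

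Of 24 regulators of Gfap, namely cytokine receptors, Jak and Stat genes and transcription factors, 22 were tested in white matter. From young to old 2 rose and none fell, with a median difference of 0.08. Stat3, the transcription factor downstream of gp130 receptors, measured 49.1 and 41.4 CPM in young, 53.0 and 45.7 in middle, and 72.2 and 72.3 in old sections. Its rise was 0.59 (SE 0.14, edgeR adjusted p = 0.0174), called in 13 of 18 alternatives and not by DESeq2 (adjusted p = 0.185) or without old 1 (edgeR adjusted p = 0.101), old 2 (0.116) or young 2 (0.138). Osmr, the oncostatin M receptor chain, measured 2.20 and 2.36 CPM in young, 7.34 and 4.22 in middle, and 13.0 and 13.8 in old sections, a rise of 2.46 (SE 0.38, edgeR adjusted p = 0.00028) called in all 18. Both old sections stood above all others in either gene, and the share of all genes that separate in this way was not counted. The nuclear factor 1 genes, which act in astrocyte development, did not pass: Nfix -0.17, Nfia -0.25 and Nfib -0.35 (edgeR adjusted p = 0.649, 0.844 and 0.212).

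Gfap was set beside 31 other genes of reactive astrocytes. Osmr and Hspb1 stand on this list too. In white matter 25 were tested, 24 had a positive difference of old from young, 12 rose and none fell, with a median of 1.18. Of all genes tested there 1.94% rose and 1.15% fell. S100a6, a calcium-binding protein gene, rose from 195 ± 16.5 to 508 ± 73.9 CPM (SD, n = 2 each; 1.3, edgeR adjusted p = 3.047e-07). Timp1, a metalloproteinase inhibitor, averaged 0.99 CPM in young and 14.3 in old sections (3.74, edgeR adjusted p = 8.718e-06; 149 UMIs over 6 sections). C3, the central complement component, rose by 2.24 (edgeR adjusted p = 5.435e-05) and Emp1, a membrane protein gene, by 1.97 (0.0154). C3 did not pass with clusters in place of the spot set (0.68, edgeR adjusted p = 0.861) or with 2 times as many spots (0.28, 0.841). Emp1 was 3.48 in a set with 5% of the spots (edgeR adjusted p = 0.000873) and did not pass without old 2 (0.126) or young 2 (0.0517). Serpina3n, a serine protease inhibitor, measured 35.6 and 15.1 CPM in young and 211 and 313 in old sections (3.27, edgeR adjusted p = 0.078), which was not called. It was called in 6 of 18 alternatives: by DESeq2 (3.27, adjusted p = 3.413e-07), and by edgeR with clusters (0.0192), 5% of spots (3.35, 8.692e-10), spots in no other set (3.46, 3.606e-13), without young 1 (4.04, 4.016e-07) and without young 2 (2.77, 2.991e-07). The count of 12 became 4 with 2 times as many spots or without old 2 and 6 with slide as a block.

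Of 22 genes of resting astrocytes all were tested, 3 rose and none fell, with a median of 0.20. Aldh1l1, a broad astrocyte enzyme, rose by 0.75 (edgeR adjusted p = 0.00312), Acsbg1, which activates fatty acids, by 0.47 (0.0442) and Mlc1, a membrane protein of endfeet, by 0.39 (0.0302). Of 18 alternatives 16, 8 and 11 called them, and without old 2 none of the 3 passed (edgeR adjusted p = 0.0623, 0.446 and 0.359). The abundant genes Glul (glutamine synthetase), Slc1a2 (the glial glutamate transporter) and Aldoc had 0.09, 0.16 and 0.15, with edgeR adjusted p of 0.767, 0.552 and 0.517. The 22 genes summed to 6019 and 6446 CPM in young, 6747 and 6705 in middle, and 7245 and 7439 in old sections. Reactive genes summed to 474 and 441, 658 and 569, and 1039 and 1358 CPM. Both sums were highest in the old sections, and the larger ratio was that of the reactive list. The reactive sum is weighted to abundant genes such as S100a6 and Serpina3n, of which Serpina3n was not called. The part of other cells in either sum was not tested.

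Markers of other cells in white matter spots were counted the same way, since Vim is made by several of them. Microglia and macrophage genes rose with Gfap: 6 of 8 tested, with a median of 0.85 and a summed level of 958 and 1150 CPM in young and 1907 and 2335 in old sections. No gene passed among 10 endothelial (median -0.09), 7 fibroblast (0.05), 5 tanycyte (0.60), 18 ependymal (-0.37), 16 choroid plexus (0.26) or 15 pial genes (0.27). Endothelial genes summed to 581 and 515 CPM in young and 560 and 535 in old sections, and fibroblast genes to 143 and 81.8, and 110 and 159 CPM. Of 8 mural genes 1 rose, Tagln (1.95, edgeR adjusted p = 0.0142), with a median of 0.19. Of 16 myelin genes 6 fell and none rose (median -0.31). The part of these cells in the members' values was not tested.

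Outside white matter few listed genes were called in old against young. Of 30 reactive genes tested in whole sections 26 had a positive difference (median 0.27) and 1 was called, Hspb1, which fell, where 0.164% of all genes were called. Of 10 microglia genes 9 had a positive difference (median 0.23), against a median of -0.002 over all genes. In ventricle wall spots the median was 0.38 over 8 microglia genes and -0.17 over 22 regulators. None was called, where 0.0667% of all genes were. In whole sections, pial spots, ventricle wall spots and other spots no intermediate filament gene was called of 23, 18, 16 and 23 tested, with medians from 0.01 to 0.12.

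Finally, the genes whose levels were most like those of the members were sought over the 9 named regions in the 6 sections, 54 points, among 9589 genes. Most like Gfap, by Pearson's r of log2(CPM + 1), were Padi2 (0.94), Add3 (0.93), Rplp0 (0.93), Cyba (0.93) and C4b (0.92). Most like Vim were Clic1 (0.97), Ifitm3 (0.96), Rnase4 (0.96), Ctsh (0.96) and Tspo (0.96). Gfap and Vim had an r of 0.90, which put Vim at place 12 among the genes like Gfap, and Gfap at place 71 among those like Vim. Points of 1 section share a library, and the correlation is mostly one over regions.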

How the data were processed

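Visium libraries of 6 coronal mouse brain sections were used. The deposited values are raw UMI counts per gene and spot, and per the file headers Space Ranger 1.3.1 made them for the authors. The submitters' processing notes list version 3.1 and build mm10. No normalization was applied before deposit. Spots with at least 500 UMIs were kept, which left out 1 spot each of middle 2 and old 2. Gene IDs were matched to GENCODE M21 (32158 of 32285). Doublets do not apply to spots, and no cell types were assigned.

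Spot sets were drawn in each section by the share of UMIs from marker genes. Clusters came from Leiden clustering at resolution 0.8 of spots from all sections on 2000 variable genes, leaving out the members, the glial, filament and regulator lists, and mitochondrial and haemoglobin genes. A cluster was named from its markers, and clusters with no clear list were pooled as unnamed. Clusters with a clear white matter list whose leading gene was not a myelin marker were also left unnamed, by a rule chosen after the clusters were seen. These were led by Sparc (863 spots), Ccn2 (287) and Ecel1 (96). Counts were summed per section and unit, so that the section is the replicate, and tested with edgeR 4.0.16 (quasi-likelihood, robust, TMM, filterByExpr, age as the only term, 3 residual degrees of freedom). P-values are two-sided, with Benjamini-Hochberg adjustment over all genes tested and a threshold of 0.05. Levels in CPM are plain shares of the unit's UMIs and have no pseudocount, and likeness used log2(CPM + 1). The fits were tested on simulated data. Shares of spots were compared with an exact permutation test.

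The alternatives were DESeq2 1.42.0, limma 3.58.1 (for the differences between units), other size factors, no filter on low counts, slide or replicate as a block, only the ages compared, thinned sums, other spot and cluster definitions, and each section left out in turn. Named genes were Gfap and Vim whatever their values, and from each list in each comparison the called genes with a mean of at least 5 CPM, at most 4 per direction by size of change, with the 3 most abundant. The 5 genes most like each member, with a mean of at least 10 CPM, completed the rule; a few genes it names are not reported here. The members and the lists were chosen with earlier results of these data known. The labels put 2 males in each age group but do not tie a section to an animal, so p-values measure the spread between sections.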

Additional observations from a re-analysis of the deposited data

How the results depend on the processing

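Under alternatives other than leaving out a section, 355 values for the members kept their direction and side of the threshold, 24 changed sign, 22 became called and 3 lost their call. With a section left out, 245 kept both, 28 changed sign, 22 became called and 5 lost their call. For white matter Gfap, old against young was called in 17 of 18 alternatives and positive in all. With 2 times the share of spots it was 0.91 (edgeR adjusted p = 0.0942), middle against young was -0.079 for Gfap and -0.20 for Vim, old against middle Gfap was 0.99 (0.203), the ventricle wall gave -0.13 for Gfap in old and -0.40 and -0.081 for Gfap and Vim in middle against young, the pial excess of Vim was 0.013, and Nefl and Slc1a2 in white matter were -0.037 and -0.012. With smaller sets, 5% of spots in the case of white matter, white matter Vim was 1.92 in old against young (1.492e-10), 1.08 in middle against young (4.663e-05) and 0.84 in old against middle (0.000374), Gfap in middle against young was 0.59 (0.00594), and the excess of white matter over other spots was 0.50 for Gfap (7.858e-06) and 1.5 for Vim (2.502e-25). In the ventricle wall that setting turned Gfap and Vim to -0.29 and -0.17 in old against young, -0.085 and -0.13 in middle against young and -0.21 and -0.041 in old against middle. The cause of these changes was not tested.

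DESeq2 called whole-section Gfap (0.91, adjusted p = 0.0171) and Vim (0.58, 0.0272), white matter Vim by spots (1.41, 0.0235) and by clusters (1.24, 0.0241), the excess of Vim in white matter (0.98, 0.000628), isocortex Gfap (0.72, 0.00749), striatum Gfap (1.39, 7.6e-07) and Vim of the unnamed clusters (0.62, 0.0327). Coarser clusters gave 0.76 for Gfap of the unnamed clusters (edgeR adjusted p = 0.253) and no pial value, and finer ones called striatum Gfap (1.41, 0.00869). Clusters in place of pial spots gave Gfap 0.37 in middle against young and -0.034 in old against middle. Without the spots richest in choroid plexus markers, ventricle wall Gfap was -0.58 in old and -1.01 in middle against young, and Vim -0.25 in middle against young. Restricting each set to spots in no other, chosen after the overlaps had been seen, gave white matter Vim 1.62 in old against young (0.000301) and 1.25 against middle (0.00247), an excess over other spots of 0.40 for Gfap (5.529e-05) and 1.2 for Vim (4.462e-21), pial Vim -0.072 in middle against young, and ventricle wall Gfap and Vim -0.45 and -0.26 in old and -0.84 and -0.42 in middle against young. With slide as a block pial Gfap was -0.096 in old against young, pial Vim -0.025 in middle against young, white matter Nfia 0.051, and striatum Gfap was called (1.2, 0.00888). The share of ventricle wall spots with a UMI, old minus young, was 6.86 percentage points for Gfap thinned to 10000 UMIs and -0.40 for Vim unthinned.

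Deviations of same-numbered sections correlated at 0.019 (young and middle), 0.135 (young and old) and 0.241 (middle and old) over 17673 genes. In the middle and old groups replicate number is also slide, while both young sections shared slide 1. A pairing by number and one by slide cannot be told apart there. With replicate number as a block, isocortex Gfap was 0.72 (edgeR adjusted p = 0.0443) and striatum Gfap 1.37 (9.825e-05), both then called, Gfap of spots outside the sets was 0.80 (0.014), also called, and whole-section calls went from 29 to 21 and white matter calls from 394 to 423.

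Leaving out each section in turn gave these ranges of log2 difference for Gfap, old against young: 0.59 to 1.17 in whole sections, -0.21 to 0.72 in pial and -0.056 to 0.94 in ventricle wall spots. By clusters they were 0.70 to 1.3 in white matter, 0.85 to 1.17 in the unnamed clusters, 1.13 to 1.63 in striatum, 0.66 to 0.78 in isocortex, -0.041 to 0.40 in the amygdala and olfactory cortex, -0.057 to 1.04 in the choroid plexus and ventricle wall, -0.68 to 0.54 in the hippocampal formation and -0.011 to 0.84 in the pial cluster. For Vim they were -0.079 to 0.57 in pial spots, and by clusters 0.89 to 1.54 in white matter, 0.55 to 0.67 in the unnamed clusters and -1.36 to 0.48 in the hippocampal formation. For middle against young they were -0.062 to 0.36 (Vim, whole), -0.40 to 0.37 and -0.17 to 0.47 (Gfap and Vim, pial), and -0.60 to 0.83 and -0.095 to 0.35 (ventricle wall). For old against middle they were 0.35 to 0.94 (Gfap, whole), 0.66 to 1.19 (Gfap, white matter), -0.13 to 0.71 and -0.15 to 0.30 (Gfap and Vim, pial), and -0.42 to 0.95 and -0.11 to 0.29 (ventricle wall). The excess over other spots ranged from 0.11 to 0.47 and 0.74 to 1.22 in white matter for Gfap and Vim, from -1.12 to 0.013 and -0.47 to 0.057 in pial spots, and from -1.07 to 0.32 in ventricle wall spots for Gfap. Glul in white matter ranged from -0.024 to 0.20. Without old 1, whole-section Gfap was called in old against young (1.17, edgeR adjusted p = 0.00249) and against middle (0.94, 0.0362), and without young 2 the pial shortfall of Gfap was called (-1.12, 2.792e-07). Old against young was also called for striatum Gfap (without old 1, 1.63, edgeR adjusted p = 0.000594; young 1, 1.16, 0.00828; young 2, 1.62, 2.467e-05), isocortex Gfap (middle 1, 0.72, 0.00504; middle 2, 0.72, 0.00471), cluster white matter Vim (old 1, 1.53, 6.296e-06; old 2, 0.89, 0.00755), Vim of the unnamed clusters (middle 1, 0.0049; middle 2, 0.00551; young 2, 0.0428) and hippocampal Vim (young 2, -1.36, 8.43e-09). The white matter excess of Gfap was called without middle 1 (0.0401), middle 2 (0.0304) or young 1 (0.0155), and that of Vim without any section but young 2 (6.505e-12 to 0.000575). Calls of Gfap were lost in white matter against middle without middle 2 (0.186) or old 2 (0.055), in the unnamed clusters without young 1 (0.057) and in cluster white matter without middle 1 (0.0596) or middle 2 (0.0593). An age left with 1 section is assumed to vary like the others.

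Counts moved more. In whole sections 29 genes were called in old against young, 194 by DESeq2, 113 without the filter, 7 with only the ages compared, 7 with slide as a block and 6 to 75 without a section. In white matter 394 were, with 154, 699, 158 (2 times the share), 173 (slide) and 140 to 539 in place. Of reactive genes 12 were, 4 with 2 times the share, 6 with slide and 4 without old 2. Of homeostatic genes 3 were, 1 by DESeq2, clusters, 2 times the share or slide, and 0 to 3 without a section. Of regulators 2 were, 1 by DESeq2 or 2 times the share, and 1 to 3 without a section. Of myelin genes 6 were lower, 3 by clusters or slide, 2 with 2 times the share and 2 to 7 without a section. These alternatives for counts were chosen after the data had been seen. With 2 sections per age, 3 residual degrees of freedom and age partly tied to slide, a small difference could not be detected, and ventricle wall sums rest on 1240186 to 2073166 UMIs. Isoforms of Gfap are not resolved by these counts.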

Other observations

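Spots ranked next after the 10% richest in ependymal markers differed from those 10%. They do not border the ventricle wall set of 2% in rank, and where they lay in the section was not examined. In the 10% of spots second richest in ependymal markers, Gfap measured 102 and 83.9 CPM in young, 116 and 167 in middle, and 170 and 286 in old sections, and old was 2.45 times young on average without overlap. Vim there measured 41.7 and 30.1, 38.6 and 54.0, and 52.8 and 93.8 CPM, 2.04 times without overlap. In the 10% richest in ependymal markers the ratios were 1.2 and 1.21, with overlap. White matter spots were not left out of these classes, and their part in the values was not tested. The classes given here were taken from 10 per marker list and have no test. In the second class old 2 was well above old 1 for both genes. How many of all genes separate old from young there was not counted.

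Of the microglial genes that rose in white matter spots, the complement chain genes C1qa, C1qb and C1qc rose by 1.18 (edgeR adjusted p = 0.000115), 1.10 (0.000162) and 1.09 (1.152e-06) from young to old. Each of the 3 was called in all 18 alternatives. Of the myelin genes that fell, Mal dropped by 0.69 (edgeR adjusted p = 0.000548), also in all 18. Mbp, one of the most abundant myelin genes, had -0.28 (edgeR adjusted p = 0.295), which was not called.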
